A study of Mus musculus with 2 samples.

Results

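Genes for the breakdown, export and sensing of heme were examined for accessible chromatin in G1E cells, a mouse erythroid progenitor line that lacks the transcription factor GATA1 and therefore stops before terminal red cell maturation. The 10 genes came from 21938 protein-coding genes placed with the GENCODE M21 annotation on mm10. They were Hmox1, Hmox2, Blvra and Blvrb (breakdown), Flvcr1 (export) with its paralogue Flvcr2, and Eif2ak1, Bach1, Nfe2l2 and Keap1 (sensing). A region was assigned to a gene when it overlapped the gene body or lay within 50 kb of it, which gave 55 of the 25799 regions listed in the 2 libraries. ATAC-seq, in which a transposase inserts sequencing adapters into open DNA, was run on 2 libraries that the labels call biological replicates of 1 group, each from 50000 cells of a male C57BL/6J background that carry the Gata1 defect. There is no GATA1-expressing or heme-treated group, so the values below describe 1 cell state and no test between conditions was possible.

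Heme oxygenase opens the heme ring into biliverdin, carbon monoxide and iron, and biliverdin reductase turns biliverdin into bilirubin. Heme also acts as a signal. The repressor BACH1, paired with a small Maf protein, occupies antioxidant response elements until heme binds it, whereupon it leaves the DNA and is degraded, and the activator NRF2 (encoded by Nfe2l2), which KEAP1 otherwise sends for degradation, can act at the same elements. In erythroid cells the heme-regulated kinase encoded by Eif2ak1 slows protein synthesis when heme is short, so that globin is not made ahead of its cofactor.

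The data are the authors' peak lists. They hold no read totals, so the depth is unknown, a missing region means only that none was listed, and an open site in a share of the cells cannot be told apart from a weakly open site in all of them. A signal is the peak's own value as the authors' caller gave it. Because its scale belongs to 1 library, it is accompanied by a percentile, from 0 to 100, among all regions of the same library. Over the 44 regions of these genes listed in both replicates, the percentiles of the replicates differed by a median of 7.04 points and at most 28.2 points, against a median of 8.77 points over all 17425 such regions. The erythroid label was checked against marker promoters: 6 of 6 erythroid progenitor genes (Klf1, Tal1, Gfi1b, Nfe2, Epor and Zfpm1) had a promoter region in both replicates, against 0 of 6 macrophage and granulocyte genes and 0 of 5 lymphoid genes. Of 4 megakaryocyte genes, Gp1ba and Itga2b had one in both replicates, Pf4 in replicate 1 only and Vwf in neither. The share among all protein-coding genes was 38.8%. The percentile averaged over the replicates had a median of 35.1 for the 6 erythroid genes and 58.8 for Gp1ba and Itga2b. It was 72.7 for all genes with a promoter region in both replicates, with the strongest such region of each gene taken. The check therefore does not separate erythroid from megakaryocyte cells.

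The sequences under the regions are shown first. The results below turn on which of them match a string of the element that BACH1 and NRF2 share. Binding of either factor was not measured. The search was for exact strings on both strands in the 200 bp around a region's summit. The antioxidant response element was searched as TGACNNNGC, where N is any base, the AP-1 string as TGANTCA, and the Maf-extended AP-1 string as TGC followed directly by the AP-1 string. Every match of the extended string is also an AP-1 match, and one with G at its free base is also an antioxidant response element match. Sequences run 5′ to 3′ from the GRCm38 genome (the mm10 build), with the matches in capitals and overlapping matches joined. The intergenic region 9.57 kb upstream of Hmox1 held 3 copies in a row (chr8:75083933-75084029, plus strand):
Hmox1 upstream: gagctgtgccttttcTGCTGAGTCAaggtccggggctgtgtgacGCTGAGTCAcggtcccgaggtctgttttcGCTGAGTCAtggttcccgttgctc
Bach1 held 1 Maf-extended match in each of 2 regions of its own, at 1.18 kb (chr16:87700087-87700126, plus strand) and 14.3 kb (chr16:87713168-87713207, plus strand) inside the gene. Only the match of the near region is also an antioxidant response element match:
Bach1 intron, near: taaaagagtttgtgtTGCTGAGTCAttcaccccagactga
Bach1 intron, far: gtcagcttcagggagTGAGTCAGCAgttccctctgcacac
Flvcr1 lies on the minus strand, and its upstream regions at 29.2 kb (chr1:191055415-191055491) and 16.7 kb (chr1:191042816-191042854) read, on that strand:
Flvcr1 upstream, far: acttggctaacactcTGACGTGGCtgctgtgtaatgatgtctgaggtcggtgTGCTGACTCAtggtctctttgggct
Flvcr1 upstream, near: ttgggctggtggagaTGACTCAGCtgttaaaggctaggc

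At promoters, 8 of the 10 genes had a region in both replicates within 1000 bp of a start site, and Flvcr2 and Keap1 did not. Over all protein-coding genes the share was 38.8%. The highest 2 by mean percentile belonged to Flvcr1, at percentiles 96.2 and 98.9 in replicates 1 and 2, and Blvra, at 96.5 and 95.5. Below them came Eif2ak1 (77.4 and 84.4), Nfe2l2 (80.4 and 79.0), Blvrb (78.4 and 66.0), Hmox1 (50.6 and 78.8), Bach1 (52.6 and 63.5) and Hmox2 (44.0 and 42.4). The replicate ranges of Flvcr1 and Blvra overlapped, as did those of Eif2ak1 and Nfe2l2, of Eif2ak1 and Blvrb, and of Hmox1 with Eif2ak1, Blvrb and Bach1, so these neighbours have no order beyond the spread between replicates. The Hmox2 range lay below those of the other 7. With the strongest promoter region of each gene taken, the median of the mean percentile was 76 over these 8 genes. It was 72.7 over the 8507 protein-coding genes with a promoter region in both replicates.

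**Figure D1:**
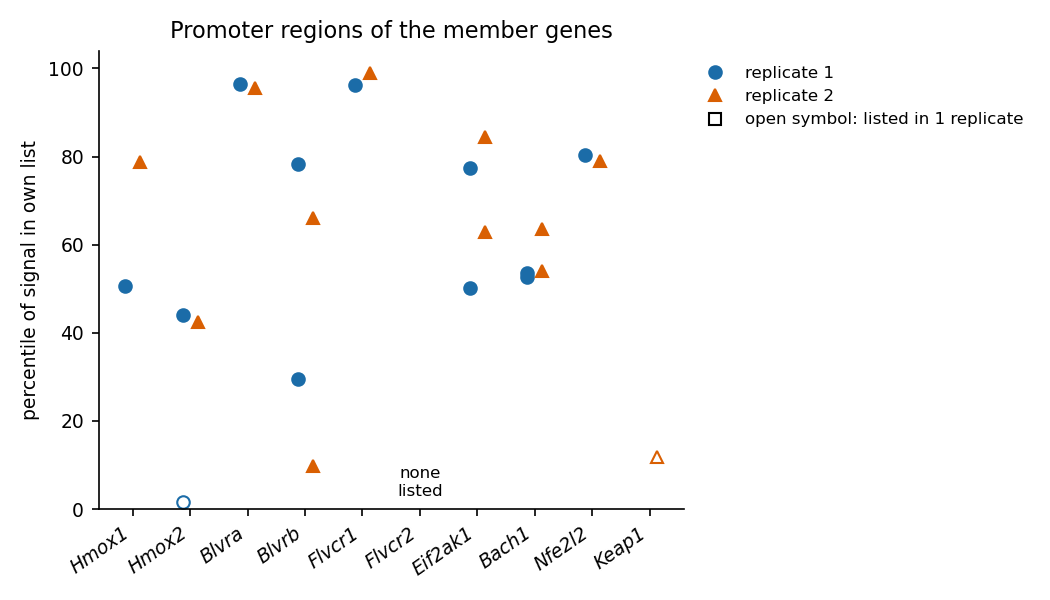
Percentile of signal within a library's own list (vertical axis, 0 to 100) for the promoter regions of each gene, with circles for replicate 1 and triangles for replicate 2. Flvcr1 and Blvra sit above 95 in both replicates, Hmox1 is the gene whose replicates lie farthest apart (50.6 and 78.8), Keap1 has 1 open triangle at 11.8 and Flvcr2 has none.

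Hmox1 encodes the inducible heme oxygenase. Its promoter region (chromosome 8, 75093431 to 75093991) had its summit 5 bp upstream of the outermost start and signals of 8.19 and 12.8. No antioxidant response element or GATA string (AGATAA or TGATAA) was found in the 200 bp around that summit, which held 1 E-box (CACGTG) and 1 SP1 string (GGGCGG). The region 9.57 kb upstream (75083756 to 75084402), in intergenic sequence, ranked above the promoter in both replicates. Its signals were 14.7 and 14.8, its percentiles 92.4 and 87.8, and its −log10 p values 43.5 and 45.1. It was the highest by mean percentile among the 15 distal regions of the 10 genes, where distal means more than 1000 bp from every annotated start site. Its replicate range overlapped those of the Flvcr1 region 29.2 kb upstream (80.6 and 90.0) and the far Bach1 intron region (91.3 and 83.2). The Flvcr1 one ranked above it in replicate 2, so these have no order beyond the spread between replicates. The 3 antioxidant response element matches printed above are centred 95, 67 and 38 bp before the summit, with starts 28 and 29 bp apart, and 1 of them is also a Maf-extended match. At least 3 such matches were found in 17 of all 8227 distal regions in both replicates (0.207%) and in 4 of 8538 promoter regions (0.0468%). A region 21.9 kb upstream had signals of 9.41 and 7.78, and one 42.8 kb downstream, with signals of 6.54 and 6.90, held a GATA string with a CTG 8 bases before it. That spacing, or 7 bases, is the composite string bound by TAL1 and GATA factors together. The remaining 2 regions in the Hmox1 window were at the promoter of Mcm5, a subunit of the replicative helicase, with signals of 14.5 and 15.3 at the stronger one.

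Hmox2 encodes the constitutive heme oxygenase. Its promoter region (chromosome 16, 4726150 to 4726678) had signals of 7.58 and 8.10 and held 1 antioxidant response element match 82 bp past the summit. A second, weak promoter region 467 bp inside the gene was listed in replicate 1 only, with a signal of 3.82. Hmox2 had no distal region in both replicates, and its other 3 shared regions were at the promoters of Coro7, Nmral1 and Cdip1. The pair of oxygenase genes thus had 3 shared distal regions at Hmox1 and 0 at Hmox2, in windows of 107 kb and 140 kb.

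Blvra encodes biliverdin reductase A, which makes bilirubin. Its promoter region (chromosome 2, 127070457 to 127070834) had signals of 16.5 and 17.4, with the summit 4 bp upstream of the outermost start and 1 antioxidant response element match 49 bp before the summit. The stretch around that match, from the RefSeq promoter table on GRCm38.p6, which held 9 of the 10 genes, lies at chr2:127070593-127070656 on the plus strand. It is shown because Blvra had no distal region in both replicates, and this match lies in its promoter region, upstream of the outermost start:
Blvra promoter: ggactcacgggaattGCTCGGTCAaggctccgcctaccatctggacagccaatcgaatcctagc
The shared region at the promoter of Ncaph, 63.4 kb from the Blvra start, also held 1 antioxidant response element match. A distal region 66.5 kb from the Blvra start, with a GATA string in the composite spacing, was listed in replicate 2 only, with a signal of 6.62. Blvrb encodes biliverdin reductase B, a flavin reductase of red cells. Its main promoter region (chromosome 7, 27447504 to 27448192) had signals of 11.7 and 10.8 and is shared with a start site of Sptbn4, a spectrin gene. A second one, 994 bp inside in a UTR exon, was weaker at 6.42 and 5.31 and held 1 GATA string. Blvrb had the most shared regions of the 10 genes, 8, of which 4 were at the promoters of Sertad3, Sertad1 and Prx. Its distal regions at 33.7 and 42.9 kb held no antioxidant response element, AP-1 or GATA string near their summits.

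Flvcr1 encodes a plasma membrane heme exporter that erythroid progenitors need, also described as a choline transporter. Its promoter region (chromosome 1, 191026049 to 191026773) had signals of 16.3 and 19.98 and −log10 p values of 78.1 and 107. The summit lay in an exon of A230020J21Rik, annotated on the opposite strand. The RefSeq sequence upstream of the start (chr1:191026191-191026356, minus strand) is printed because the region has the highest mean percentile of the 10 promoters, though Blvra ranked above it in replicate 1, with its antioxidant response element match in capitals:
Flvcr1 promoter: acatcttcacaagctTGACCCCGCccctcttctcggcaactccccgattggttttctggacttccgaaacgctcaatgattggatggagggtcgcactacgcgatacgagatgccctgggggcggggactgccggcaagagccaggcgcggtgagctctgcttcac
Upstream of Flvcr1, 3 further regions carried AP-1 strings. The one 29.2 kb away, in an intron of Tatdn3, had signals of 12.0 and 15.4, and held 1 Maf-extended match, 1 separate antioxidant response element match and 1 GATA string. The one 16.7 kb away, in an intron of Spata45, was weaker at 7.13 and 7.42. It held an antioxidant response element match centred 5 bp from the summit and 2 GATA strings 31 and 40 bp to its other side. The one 9.68 kb away, at the promoter of Spata45, had signals of 6.30 and 6.34 and held 1 Maf-extended match and 2 GATA strings. All 4 of these Flvcr1 regions, the promoter included, thus had either an antioxidant response element or a Maf-extended match, while the fifth, at the shared promoter of Nsl1 and Tatdn3, had neither.

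Flvcr2 encodes the paralogue of FLVCR1, described as a heme importer and as a choline transporter. No promoter region was listed for it, in the thresholded or in the authors' more lenient lists, although its start lies in CpG-rich sequence. The ratio of observed to expected CpG in the 300 bp around the start was 0.721. The median of that ratio was 0.768 over all genes with a promoter region in both replicates and 0.305 over those without. No region was listed inside the Flvcr2 body. Those at 48.2 and 40.9 kb upstream were in introns of Batf, a factor known from lymphocytes, with signals of 8.74 and 8.06, and of 8.96 and 13.4. The strong region 78.1 kb downstream of its start (15.7 and 17.2) was the shared promoter of Erg28 and Ttll5. A distal region at 72.1 kb, in an intron of Erg28, held 1 GATA string and was listed in replicate 2 only, with a signal of 8.77, and its counterpart in the lenient list of replicate 1 had 6.52.

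Eif2ak1 encodes the heme-regulated eIF2 kinase. Its promoter region (chromosome 5, 143817552 to 143817907) had signals of 11.5 and 13.9, and a second region, with its summit 1.32 kb inside the first part of the gene, had 8.15 and 10.4. That intronic region is the one among the 11 promoter regions of these genes with a TAL1-GATA composite string (9.09%), against 2.19% of all promoter regions. In distal regions the composite was in 2 of 15 (13.3%), at Hmox1 and Bach1, against 15.5% of all distal regions. Its sequence (chr5:143819120-143819166, plus strand) is set beside that of the Bach1 intron region 8.59 kb inside the gene (chr16:87707514-87707559, plus strand), because both hold the composite string in an intron of a heme-sensing gene, in cells without GATA1:
Eif2ak1 intron: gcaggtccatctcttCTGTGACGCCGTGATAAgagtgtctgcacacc
Bach1 intron, middle: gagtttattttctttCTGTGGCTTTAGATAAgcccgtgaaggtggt
The capitals mark the whole composite, CTG to the end of the GATA string, which is centred 33 bp past the summit at Eif2ak1 and 2 bp before it at Bach1. The distal region of Eif2ak1, 75.8 kb inside its intron and in a coding exon of Ankrd61, had signals of 10.7 and 13.7 and held neither a GATA nor an AP-1 string near its summit.

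Bach1, which encodes the heme-sensing repressor, had 5 regions in both replicates at its start or inside its body, the most of the 10 genes. The promoter region (chromosome 16, 87698655 to 87699065) had signals of 8.38 and 10.5 and, around its summit, 3 SP1 strings and no antioxidant response element. The near intron region 1.18 kb inside (8.49 and 9.33) and the far one 14.3 kb inside (14.4 and 13.7) were the ones with Maf-extended matches, 21 and 19 bp before their summits. The far region, at percentiles 91.3 and 83.2, was stronger in both replicates than the Bach1 promoter. Between them, the region at 8.59 kb (9.46 and 10.5) held the composite string, and the one at 7.46 kb (4.36 and 3.88) was the weakest of the 44 shared regions by mean percentile, at 2.87. Over their whole lengths of 752 and 854 bp these 2 regions held 4 GATA strings each and no antioxidant response element. Downstream of the gene, regions at 48.0 and 56.1 kb from its start were listed in replicate 2 only, with signals of 10.7 and 10.4.

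Nfe2l2, which encodes NRF2, had a promoter region 952 bp wide (chromosome 2, 75704424 to 75705375) with signals of 12.0 and 12.9. The 200 bp around its summit held 5 SP1 strings and no antioxidant response element, AP-1 or GATA string. Elsewhere in the region lay 1 antioxidant response element match and 1 GATA string. An intron region 21.5 kb inside had signals of 8.70 and 8.30, and a weak one at 19.1 kb was listed in replicate 1 only at 4.15. The remaining shared region, 45.6 kb from the Nfe2l2 start at the promoter of Hnrnpa3, had signals of 10.7 and 13.8. It held an antioxidant response element match centred 7 bp from its summit and 3 over its whole length. Keap1, which encodes the adaptor that holds NRF2 for ubiquitination, had no promoter region in both replicates. In replicate 2 a region in a UTR exon 1.6 kb inside the gene, within 1000 bp of another of its start sites, had a signal of 5.57, at percentile 11.8. The more lenient list of replicate 2 added regions 19 and 542 bp inside the outermost start, with signals of 6.07 and 4.34, and that of replicate 1 held none over those 2. The region 1.6 kb inside did have a counterpart in the lenient list of replicate 1, with a signal of 4.15, so that with the lenient lists 9 of the 10 genes, Keap1 included, had a promoter region in both replicates. The 1 distal region of Keap1 in both replicates, 18.1 kb from its start and past its end, had signals of 9.57 and 10.3. Near its summit it held 2 GATA strings and no antioxidant response element, and over its whole length 2 antioxidant response element matches. The other 2 shared regions of Keap1 were the promoters of Kri1 and Atg4d.

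Of the 55 regions, 44 (80%) were in both replicates, against 67.5% of all 25799 regions. The share was 84.6% of 13 own promoter regions, 85.7% of 21 promoter regions of other genes and 71.4% of 21 distal regions. The share of all regions is not split by class here, so the classes are not matched. The 44 fell into 11 at the genes' own promoters, 18 at promoters of other genes and 15 distal ones. Of the distal ones, 5 lay in the gene's own body, 4 in another protein-coding gene's body and 6 between genes, and 6 of the 15 were upstream. At least 1 distal region was present for 8 of the 10 genes, against 38.8% of all protein-coding genes, with a median of 1.5 per gene against 0. Hmox1 and Bach1 had 3 each, a number that 9.09% of protein-coding genes reach, and Hmox2 and Blvra had 0. The windows were 107 to 186 kb long, and a longer gene body gives more room for regions. The median percentile of the 15 distal regions was 61.8 and 59.1 in replicates 1 and 2, against 51.4 and 52.5 for all distal regions. That of the 11 own promoter regions was 53.6 and 66, against 66.5 and 69.7 for all promoter regions. These 11 include the second promoter regions of Blvrb, Eif2ak1 and Bach1, which are lower by mean percentile than the first ones. Of the shared regions, the outermost lay 48.5 kb from the Keap1 body and 47.9 kb from the Flvcr2 body, and the nearest ones left out by the limit lay 51.7 kb from Keap1 and 59.1 kb from Hmox1.

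**Figure D2:**
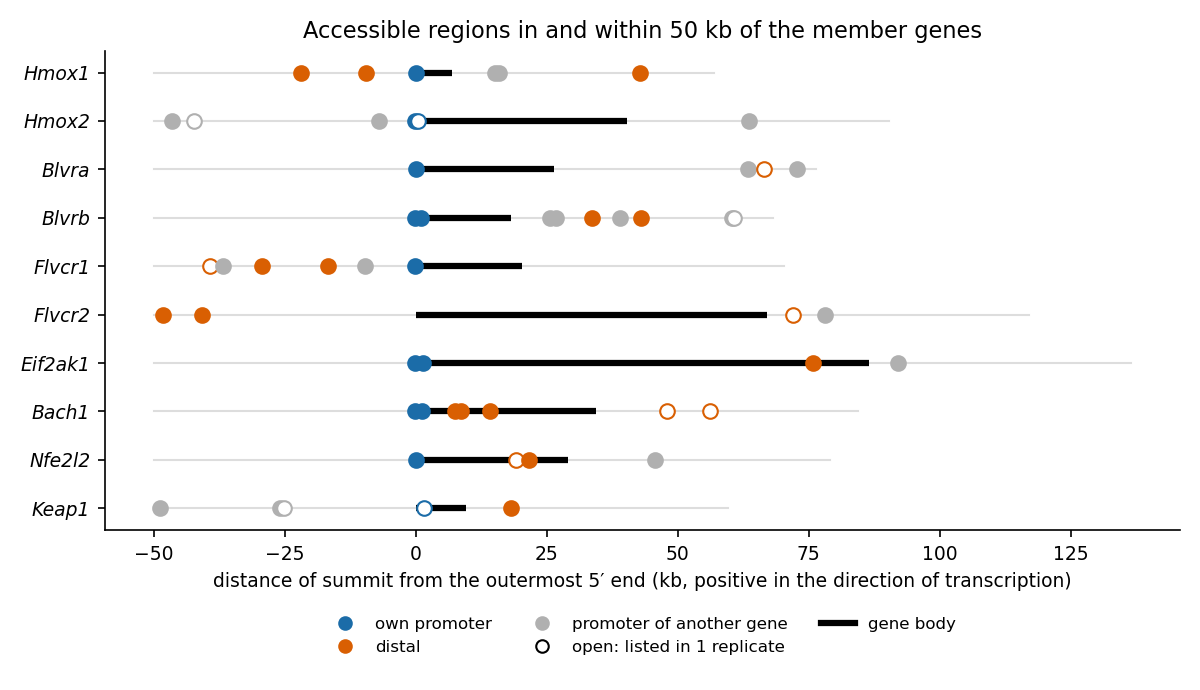
Regions by the distance of their summit from the outermost start of each gene (horizontal axis, kb), with filled circles for regions in both replicates, open circles for those in 1 replicate, colours for the class and black bars for gene bodies. Bach1 carries its 3 shared distal regions inside the gene, Hmox1 has its 3 outside, and the Flvcr2 body is empty.

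Antioxidant response element matches were found in 12 of the 44 shared regions, 4 in each class. They were in 4 of 11 own promoter regions (36.4%), those of Hmox2, Blvra and Flvcr1 and the near intron region of Bach1, against 12.2% of all promoter regions. Of the 15 distal regions, 4 (26.7%) had one, at Hmox1, Flvcr1 (2 regions) and Flvcr2, against 14.4% of all distal regions. Of the 18 promoter regions of other genes, 4 (22.2%) had one, against the same 12.2% of all promoter regions. These were at Cdip1 (Hmox2 window), Ncaph (Blvra window), Aimp2 and Pms2 (Eif2ak1 window), and Hnrnpa3 (Nfe2l2 window). The higher share was thus not limited to the promoters of the 10 genes. Maf-extended matches were in 1 of 11 own promoter regions (9.09%), against 0.445% of all promoter regions, in 1 of 18 promoter regions of other genes, and in 3 of 15 distal regions (20%), against 3.43% of all distal regions. The own promoter region with one is the near intron region of Bach1, with its summit 1.18 kb inside the gene. The region at the Bach1 start had none. All 5 lay in the windows of Hmox1, Flvcr1 or Bach1. Those in the Flvcr1 window were at the promoter of Spata45 and in an intron of Tatdn3. Which gene a region acts on was not tested. GATA strings were in 6 of 15 distal regions (40%), against 59.9% of all distal regions, and in 2 of 11 own promoter regions (18.2%), against 10.4% of all promoter regions. A single region makes 9.09% of 11 and 6.67% of 15, and no test was made of these shares. Base composition was not matched between these regions and the rest. SP1 strings, which are GC-rich, were in 4 of 15 distal regions here (26.7%) and in 10.1% of all distal regions. The KLF string CCNCNCCC was in 6 of 15 (40%), against 28.1%. AP-1 strings were in 4 of 15 distal regions (26.7%), against 14%, and in 1 of 11 own promoter regions (9.09%), against 3.67%. Higher shares were thus not limited to the antioxidant response element and the Maf-extended string.

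**Figure D3:**
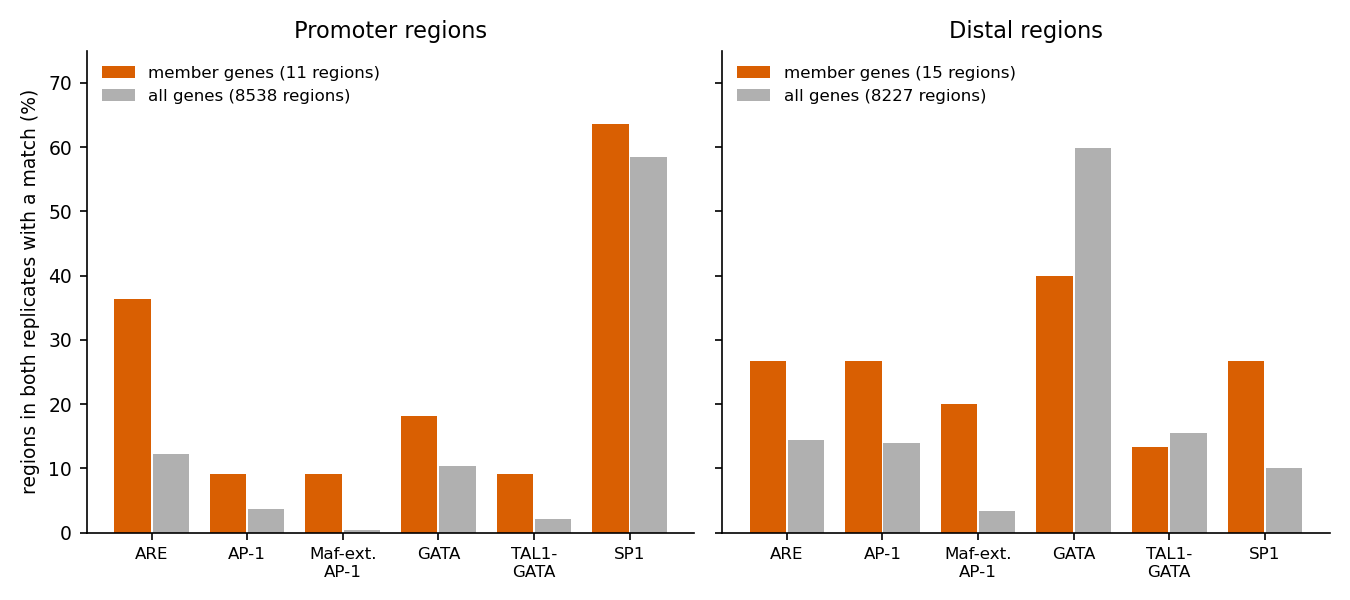
Share of regions in both replicates with at least 1 match in the 200 bp around the summit (vertical axis, percent), for the 10 genes (orange bars, left) and for all genes (grey bars, right), at promoters and at distal regions; ARE stands for antioxidant response element. The orange bars are higher in both panels for the antioxidant response element (36.4% and 26.7%) and the Maf-extended string (9.09% and 20%). The same holds for AP-1 (9.09% and 26.7%) and SP1 (63.6% and 26.7%). GATA (18.2%) and the TAL1-GATA composite (9.09%) are higher at promoters and lower in distal regions (40% and 13.3%). The Maf-extended match counted at promoters is in the near intron region of Bach1.

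The Maf-extended strings were also counted in the DNA itself, open or not. The windows of the 10 genes held 29 of them, of which 5 (17.2%) lay in a region of both replicates, against 510 of 37821 (1.35%) on chromosomes 1 to 19, X and Y. The windows were chosen around genes, so the genome-wide share is not a matched one. Of the 3 strings around Hmox1, the one 9.67 kb upstream was in a region, and those 17 and 3.87 kb upstream were not. The string at 3.87 kb lay 3682 bp from the nearest shared region, and no region was listed over it even in the more lenient lists. Around Flvcr1, 2 of 3 were in regions, and around Bach1, 2 of 5. None of the 6 strings around Hmox2, the 4 around Flvcr2, the 3 around Blvra, the 2 each around Blvrb and Keap1 or the 1 past Eif2ak1 was in one, and the Nfe2l2 window held no such string.

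**Figure D4:**
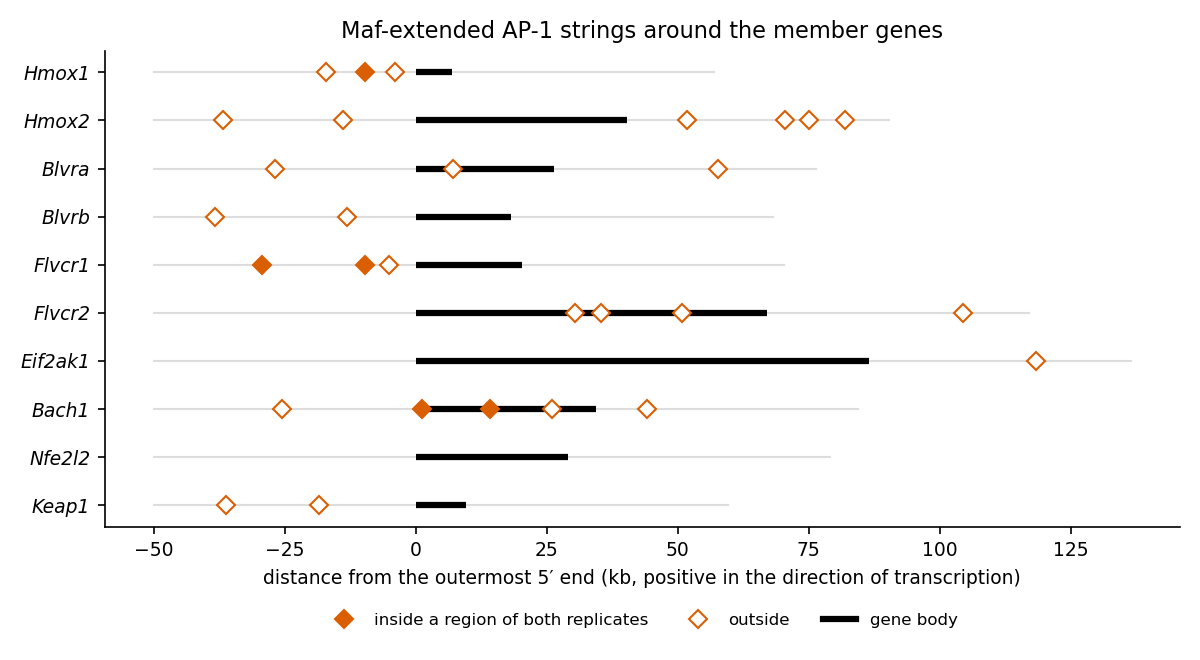
Position of every Maf-extended AP-1 string in the window of each gene (horizontal axis, kb from the outermost start), filled where it lies in a region of both replicates and open where it does not. The 5 filled symbols are at Hmox1, Flvcr1 (2) and Bach1 (2), and 24 are open.

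The promoters of genes that work with these 10 were read in the same way, against the 38.8% of all protein-coding genes that have one in both replicates, and the lists were not tested against each other. Among the partners of KEAP1, NRF2 and BACH1, 6 of 7 (85.7%) had one in both replicates, with Nfe2l1, a relative of NRF2, at signals of 14.9 and 15.3 and Sqstm1, an adaptor that binds KEAP1, at 12.7 and 14.2. Of the small Maf genes, Mafk (7.74 and 8.84) and Maff (6.73 and 6.32) had one in both replicates, and Mafg in replicate 2 only. Among 12 NRF2 and BACH1 target genes, 9 (75%) had one, led by Nqo1, a quinone reductase (12.9 and 14.3), and Slc40a1, the iron exporter ferroportin (12.5 and 12.5). Gclc and Me1 had none, and Fth1, the ferritin heavy chain, had one in replicate 2 only. The median of the mean percentile in that list was 43.1, against 72.7 over all genes with a promoter region. Of the 8 placed genes of eIF2 phosphorylation and its response, 7 (87.5%) had one. The other eIF2 kinases were stronger than Eif2ak1, with Eif2ak2 at 15.3 and 16.8 and Eif2ak3 at 14.2 and 16.6, and Atf4 had none. Heme transport and binding genes had one in 3 of 10 (30%), with Pgrmc2, a heme chaperone, at 9.99 and 11.8 and Abcb6, a porphyrin transporter, at 9.15 and 12.6. Hp and Cd163, which serve hemoglobin clearance in plasma and macrophages, were among the 5 with none. Of 4 heme-binding nuclear receptors and partners, 2 (50%) had one, Nr1d2 (11.9 and 10.5) and Ncor1 (6.64 and 10.6), and Nr1d1 and Rora had none.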

How the data were processed

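The authors deposited peak lists on mm10 for each library, as the submitters' notes state. They gave a thresholded list filtered by IDR (the irreproducible discovery rate) and a more lenient pseudoreplicated list. Aligner, peak caller and read depth: not given in the sources used here. The deposited signal of a peak and its −log10 p are the authors' own values and were used only to describe and rank peaks within a list. Overlapping or touching peaks of a list were merged, keeping the highest signal, and regions of the 2 replicates sharing at least 1 bp were joined (26083 and 27810 peaks gave 21194 and 22620 regions). Promoter regions lay within 1000 bp of a start site of a protein-coding gene, in GENCODE M21. Motifs (17) were searched as exact strings on both strands in 200 bp around the summit of the replicate with the higher percentile. Every match of the TAL1-GATA composite is also a GATA match. Analysis used Python 3.11.15 and matplotlib 3.10.9. The scripts were tested on simulated peaks. The 10 genes and the lists were chosen with earlier results of these data known. All 10 are named. In each of the 5 pathway lists the 2 strongest promoters in both replicates and the first 2 genes by alphabet with none are named, with a few others chosen after their values were seen. Ddit3 was not matched to a single annotated gene. Pooled and ranked lists were not used, apart from the positions of a conservative list in an alternative.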

Additional observations from a re-analysis of the deposited data

How the results depend on the processing

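Of 43 values under alternatives, 38 stayed within 1.5 times the value reported. The other 5 were as follows. With 100 kb to each side, 69 regions were in both replicates in place of 44, and 27 distal ones in place of 15. With peaks left unmerged there were 24 distal ones, and with the stronger 50% of each list 9. With a motif window of 100 bp, 6 shared regions had an antioxidant response element match in place of 12. The matches lost included those at the Hmox2, Blvra and Flvcr1 promoters, each centred at least 49 bp from its summit. Among own promoter regions, only the near intron region of Bach1 kept its match. The 5 changes follow from a longer window, separate counting of neighbouring peaks, fewer regions and less sequence searched. The number of genes with a promoter region in both replicates moved by no more than 1.5 times under any alternative run for it. With 2 replicates and unknown depth, absence from a list can mean a signal under the threshold. No paired analysis was possible because there is 1 group and no test.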

Other observations

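The authors' more lenient lists held 16 further regions in the windows of the 10 genes, of which 2 were in both lenient lists. One lay in a UTR exon of Blvrb, 11.8 kb inside the gene, with signals of 3.29 and 3.46. The other lay in a coding exon of Pms2, 99.8 kb from the Eif2ak1 start, with signals of 4.56 and 5.18. Hmox1 and Flvcr2 gained no region beyond those of the thresholded lists, and the Keap1 start gained 2 in replicate 2 only. Of the 11 regions of the thresholded lists found in 1 replicate only, the 5 of replicate 1 had a median percentile of 3.26 and the 6 of replicate 2 one of 36.8, against 16.6 and 20.2 for all regions in that replicate only. Of these 11, 8 had a counterpart in the lenient list of the other replicate, among them the Keap1 promoter region 1.6 kb inside the gene.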
